A study of Homo sapiens with 4 samples.

Results

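Interferon-stimulated effector genes are the genes whose products carry out the antiviral work of the interferon response. The 37 examined here were chosen by symbol and lie outside the IFIT, IFITM, OAS, ISG15, GBP, PARP, IRF and nucleic acid sensor families. Of these, 36 had a row among the 27106 genes of the table, and IFI27 is not analysed here. Total RNA was sequenced from THP-1, a human monocytic acute myeloid leukaemia line that carries an MLL-AF9 fusion. Cells received either a non-targeting antisense oligonucleotide (2 libraries) or an oligonucleotide directed at SGOL1-AS1, a long noncoding RNA (2 libraries, called knockdown here), and every library is labelled day 5. Antisense oligonucleotides are short synthetic nucleic acids that pair with an RNA and lower its level. No untreated sample is labelled, so each difference is between 2 sets of oligonucleotide-treated cells of 1 line, and the labels name no second oligonucleotide against the target.

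Type I interferon binds a receptor whose kinases JAK1 and TYK2 phosphorylate transcription factors of the STAT family. With IRF9 these bind a short DNA element, the interferon-stimulated response element, in front of their target genes. The products act at many steps: some bind viral capsids or hold budding virus at the membrane, others deplete or alter nucleotides, cut RNA, sense DNA or promote cell death. Monocytes and their leukaemic relatives respond readily to interferon, and many of the genes keep a low level without it.

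Each value below is a normalized read count, the reads of a gene divided by the authors' size factor of its library. Counts set against each other are given as non-targeting libraries 1 and 2 against knockdown libraries 1 and 2. Depth ranged from 41435922 to 51851314 reads in genes per library. Columns of the second group carry a code rather than the labels' names; they were placed there because the labels leave no other group, and all directions depend on that. Nothing in the labels says that the libraries came from separate cultures, so p-values measure the spread between these libraries, which may be technical. For SGO1-AS1, the target under its current symbol, non-targeting libraries gave 24 and 21 reads and knockdown libraries 12 and 17, too few to check the labels. All 18 listed monocyte and THP-1 markers had rows, summing to 126863 and 121408 in the non-targeting and to 122245 and 118211 in the other group. Most of each sum came from LYZ (37332 and 36975 against 39733 and 40116) and CEBPA (40440 and 36487 against 37689 and 32928). Over the 18 markers the median log2 fold change was -0.14. Singly, 4 of the 18 fell and 0 rose by limma, which called 3.4% of all genes tested lower and 0.851% higher. The 4 were the Fc receptor FCGR1A (-0.37, adjusted p = 0.00118), CD4 (-0.35, 0.000193), the signalling adaptor TYROBP (-0.24, 0.026) and the phagocyte pore protein MPEG1 (-0.51, 0.0346). CD14 was low, from 94.7 to 110.4 normalized reads, and CD68 had only 14 to 23 reads in a library. Of the T cell, erythroid and epithelial lists 2 of 5, 1 of 6 and 3 of 7 markers had rows, summing to 5.64 to 15.97, 27.8 to 45.6 and 286.9 to 331.3. The plasmacytoid dendritic list (2 of 5 with rows) summed to 2795 to 3017 with no order between groups. The summed B cell list (4 of 5 with rows) was 4807 and 4759 against 2926 and 3594, nearly all from PAX5 (4666 and 4624 against 2786 and 3455). The part of these marker differences in the results below was not tested. In bulk RNA, fewer cells making a transcript and less of it per cell cannot be told apart.

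Most of these effector genes were lower in the knockdown, by modest amounts. Of 35 tested, 26 passed as lower and 0 as higher by limma (adjusted p under 0.05 over the 19398 genes whose mean reached 10). Over all genes tested 3.4% were called lower and 0.851% higher. Scaling every library to 1 total moved the share of lower among all calls from 80% to 55.5%, and 18 of the 35 were then called lower, where 1.51% of all genes were, and 0 higher. The median log2 fold change, knockdown minus non-targeting, was -0.30 over the 35 genes and -0.01 over all genes. Among the 26, it ran from -1.04 for ISG20 to -0.21 for SHISA5. Only 3 of the 26, ISG20, RSAD2 and LGALS3BP, passed a fold of 1.5. Groups did not overlap in 29 of the 35, with knockdown lower each time; over all genes tested that share was 25.1%. In 0 of the 35 did both knockdown values lie above, against 21.6% of all genes. Overlap was seen in XAF1, SLFN5, SLFN11, SP100, PHF11 and IFI30. More abundant genes leaned lower than all genes did. Of the 7390 tested genes with a mean of at least 1000, 480 were called lower and 62 higher, with a median of -0.03. Both knockdown values lay below both non-targeting values in 2618 of these 7390 genes, and above in 1162.

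**Figure D1:**
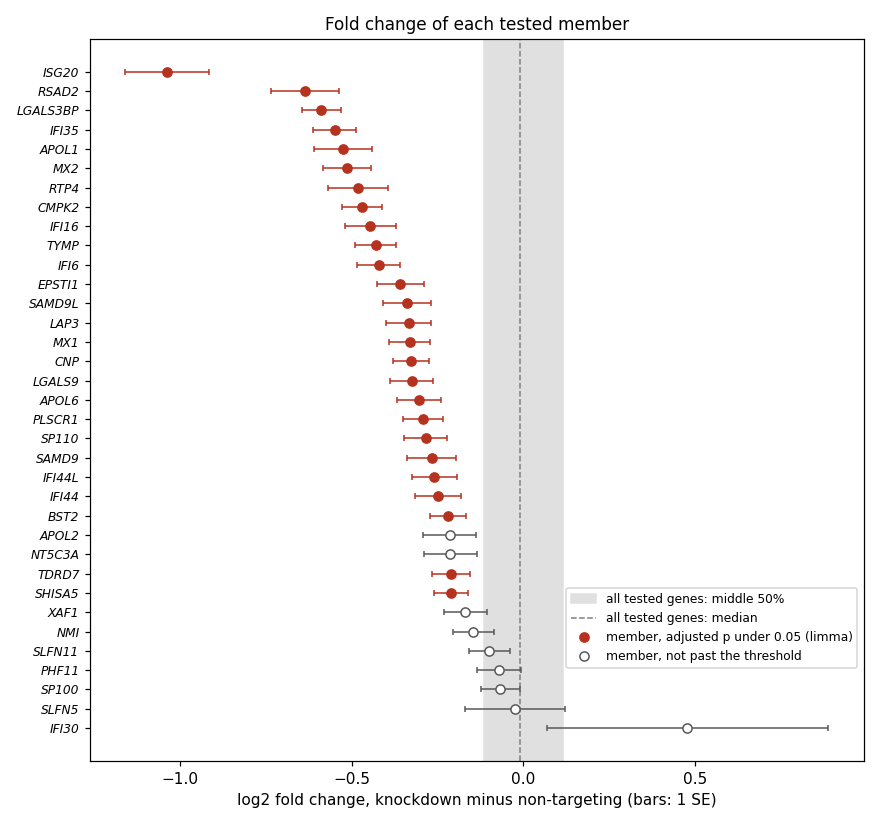
Log2 fold change (knockdown minus non-targeting, x axis) of each of the 35 tested interferon-stimulated effector genes (y axis), with bars of 1 SE, filled where the adjusted p by limma was under 0.05. The 26 filled points lie between -1.04 and -0.21, left of the grey band that holds the middle 50% of all tested genes.

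The fall was deeper in knockdown library 1 than in library 2. Relative to the non-targeting mean, the median of the 35 genes stood at -0.41 on the log2 scale in knockdown library 1 and at -0.18 in library 2. The non-targeting libraries themselves stood at -0.03 and 0.03, and library 1 was below library 2 there in 31 of the 35 genes (88.6%), against 49.0% of all genes. Knockdown library 1 was below library 2 in 33 of the 35 genes (94.3%), the exceptions being LGALS9 and IFI30, where the same held for 52.4% of all genes and 61.0% of the 7390 genes with a mean of at least 1000. Library 2, mostly the higher in each group, carries replicate number 2 in both column names, while knockdown library 1 carries 3. The labels do not say whether an equal number means a shared culture or day. The part of a difference between replicates in this order was not tested. Without knockdown library 1 the median was -0.18 and 20 of the 26 calls held. Without library 2 it was -0.41, all 26 held and 5 more genes, XAF1, NT5C3A, SLFN11, NMI and APOL2, were called lower.

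**Figure D2:**
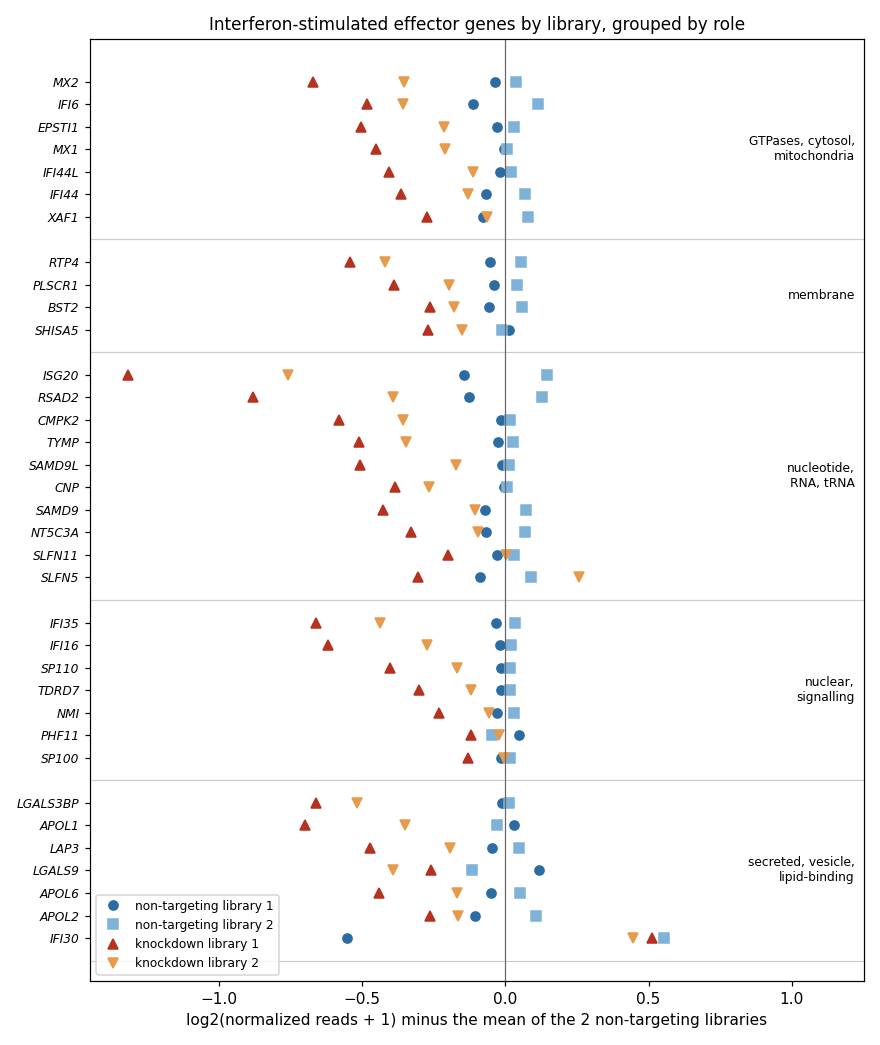
Each row is 1 gene and each symbol 1 library, placed by log2(normalized reads + 1) minus the mean of the 2 non-targeting libraries (x axis), with genes grouped by role. Red upward triangles (knockdown library 1) lie left of orange downward ones (knockdown library 2) in all rows but LGALS9 and IFI30.

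Promoter sequence was set beside these changes, since the response element is a known shared feature of such genes. RefSeq windows on GRCh38.p14, 250 bases before to 50 after a start site, were found for 29 of the 36 genes with a row. MX2, LY6E, SLFN5, PHF11, APOL1, APOL2 and APOL6 were not matched. The core of the response element was searched as GAAA, then 2 bases of any kind, then GAAA, on both strands, with overlapping matches counted separately. It occurred in 16 of the 29 genes (55.2%), against 4.02% of the 11815 tested genes with a window. By window the shares were 43.2% of 44 windows of these genes and 3.57% of all 35116 windows. Of the 16 genes with a match 15 fell, all but NMI, with a median log2 fold change of -0.33 over the 16. Of the 13 without one 8 fell, with a median of -0.29. The 13 include IFI30, which had few reads. Because the genes were chosen as interferon-stimulated, a share of matches above that of all genes goes with the choice itself. Whether a match goes with the fall was not tested. A match is a run of letters and not a measured binding site.

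The 6 called genes of smallest p with a match are shown from 200 bases before the start site up to that site, read 5′ to 3′ along the gene, with matches in capitals. MX1 runs 30 bases further, since its match in this window begins at base 12 of the transcript. Another MX1 window, not shown, holds a match on the other strand 196 bases before its own start site. In RSAD2 the match is on the other strand and reads as the reverse complement. IFI6 has 3 matches, beginning 156, 115 and 93 bases before its start, and RTP4 has a pair at 42 and 18 bases.
LGALS3BP, chr17:78979924-78980123, minus strand: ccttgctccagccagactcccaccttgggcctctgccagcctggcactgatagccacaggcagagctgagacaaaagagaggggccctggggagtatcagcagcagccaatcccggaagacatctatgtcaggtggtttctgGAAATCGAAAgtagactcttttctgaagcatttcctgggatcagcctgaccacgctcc
ISG20, chr15:88638816-88639015, plus strand: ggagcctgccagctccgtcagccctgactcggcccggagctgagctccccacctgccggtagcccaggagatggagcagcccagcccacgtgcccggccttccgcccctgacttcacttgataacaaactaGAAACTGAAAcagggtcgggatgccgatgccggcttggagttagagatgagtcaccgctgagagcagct
IFI6, chr1:27672193-27672392, minus strand: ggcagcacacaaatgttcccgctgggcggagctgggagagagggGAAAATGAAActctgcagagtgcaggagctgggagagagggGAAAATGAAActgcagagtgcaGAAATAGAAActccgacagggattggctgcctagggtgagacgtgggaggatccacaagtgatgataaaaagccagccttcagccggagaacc
RSAD2, chr2:6877577-6877776, plus strand: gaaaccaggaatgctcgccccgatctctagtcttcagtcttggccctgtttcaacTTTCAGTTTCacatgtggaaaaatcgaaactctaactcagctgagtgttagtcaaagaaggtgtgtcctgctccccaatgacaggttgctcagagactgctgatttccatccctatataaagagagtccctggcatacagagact
MX1, chr21:41420358-41420587, plus strand: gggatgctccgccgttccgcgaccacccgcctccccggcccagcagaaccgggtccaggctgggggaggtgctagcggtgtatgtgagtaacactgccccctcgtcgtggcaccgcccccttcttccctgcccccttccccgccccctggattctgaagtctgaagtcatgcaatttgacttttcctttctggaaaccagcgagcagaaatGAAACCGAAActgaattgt
RTP4, chr3:187368185-187368384, plus strand: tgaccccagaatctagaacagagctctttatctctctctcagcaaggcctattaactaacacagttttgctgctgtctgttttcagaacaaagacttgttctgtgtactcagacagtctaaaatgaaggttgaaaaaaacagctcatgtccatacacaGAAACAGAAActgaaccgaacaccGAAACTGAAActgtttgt

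Nucleotide, RNA and tRNA acting proteins held the deepest falls: 7 of 10 tested genes fell, with a median log2 fold change of -0.33. ISG20, an exonuclease that degrades RNA, fell furthest. Counts of 1038 and 1270 in non-targeting libraries 1 and 2 stood against 460.3 and 677.5 in knockdown libraries 1 and 2. The groups were far apart, with a log2 fold change of -1.04 ± 0.12 (SE; limma, adjusted p = 1.36e-05; 0.266 with robust empirical Bayes, which gives a gene of unusual spread less help from the others). RSAD2 (viperin), which converts CTP into a chain-terminating analogue, was at 4329 and 5163 against 2565 and 3604. It fell by 0.64 ± 0.10 on the log2 scale (limma, adjusted p = 0.000339), stood at -0.39 without knockdown library 1, and lost its call with robust empirical Bayes (0.421) and DESeq2 (0.262). CMPK2, a mitochondrial kinase of the same pyrimidine nucleotides, was at 15205 and 15565 against 10282 and 11997. The fall of 0.47 ± 0.06 (limma, adjusted p = 3.06e-05) was steadier between libraries than that of RSAD2. RSAD2 and CMPK2 lie on opposite strands of chromosome 2 (6865806 to 6898239 and 6840570 to 6866635 in GENCODE 29 on GRCh38), where their exons share 14 bases.

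Among the enzymes of nucleotide turnover, TYMP, thymidine phosphorylase, stood at 4195 and 4355 against 2995 and 3358. Its log2 fold change was -0.43 ± 0.06 (limma, adjusted p = 0.000115). In GENCODE 29, 20.7% of its exonic bases are shared with ODF3B and SCO2 on the same strand, and how such reads were counted is not given in the sources used here. CNP, a cyclic nucleotide phosphodiesterase, was at 9244 and 9317 against 7102 and 7714, close within both groups. It fell by 0.33 ± 0.05 (limma, adjusted p = 0.000499). NT5C3A, a pyrimidine nucleotidase, was at 1556 and 1711 against 1297 and 1528 and did not pass (limma, log2 fold change -0.21, adjusted p = 0.13), although its groups did not overlap. It stood at -0.09 without knockdown library 1 and at -0.33 without library 2.

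SAMD9 and SAMD9L, neighbouring paralogs on chromosome 7 that restrain translation during infection, both passed the threshold, with less margin for SAMD9. SAMD9L was at 14097 and 14351 against 10007 and 12618 (limma, log2 fold change -0.34, adjusted p = 0.00484), and SAMD9 at 11710 and 12930 against 9150 and 11417 (-0.27, adjusted p = 0.0317). Without knockdown library 1, SAMD9L stood at -0.17 (adjusted p = 0.0416) and SAMD9 at -0.11 (0.319), and without non-targeting library 2 SAMD9 also lost its call (0.171). Without knockdown library 2 SAMD9 stood at -0.43. Same-total scaling (every library scaled to 1 total), quantile normalization, edgeR and a minimum mean of 50 also ended the call of SAMD9 (adjusted p = 0.146, 0.166, 0.0659 and 0.0621). The Schlafen genes did not pass. SLFN11, which cuts tRNA and arrests stressed replication forks, was at 7703 and 8034 against 6843 and 7880, so the groups overlapped (limma, log2 fold change -0.10, adjusted p = 0.414). SLFN5 was scarce, at 244.9 and 277.5 against 211.0 and 311.4, with one knockdown value below and one above both non-targeting values (limma, -0.02, adjusted p = 0.955). Without knockdown library 1 SLFN5 stood at 0.26 and without library 2 at -0.30, and SLFN11 at 0.0024 and -0.20.

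GTPases and small induced proteins of the cytosol and mitochondria followed the same direction: 6 of 7 tested fell, with a median of -0.33. MX2, a dynamin-like GTPase that blocks retroviral capsids at the nuclear pore, was at 8456 and 8905 against 5448 and 6787. It fell by 0.51 ± 0.07 on the log2 scale (limma, adjusted p = 8.53e-05; 0.0924 with robust empirical Bayes). MX1, its paralog 10.9 kb away on chromosome 21 and a barrier to influenza and other RNA viruses, was at 58991 and 59350 against 43289 and 51066. MX1 fell by 0.33 ± 0.06 (limma, adjusted p = 0.00159), and by 0.21 without knockdown library 1. The difference between the paralogs was not tested.

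IFI6, a small hydrophobic protein that restrains cell death, was at 75930 and 89007 against 58736 and 64088. Its non-targeting libraries lay further apart than its knockdown libraries, and it fell by 0.42 ± 0.06 (limma, adjusted p = 0.000203). EPSTI1, an interferon-induced protein of epithelial and macrophage biology, was at 6136 and 6383 against 4410 and 5399. It fell by 0.36 ± 0.07 (limma, adjusted p = 0.00245), with -0.21 (adjusted p = 0.0137) when knockdown library 1 was left out. The neighbouring paralogs IFI44 and IFI44L on chromosome 1, 3.65 kb apart, moved to like extents. IFI44L was at 18767 and 19231 against 14324 and 17576 (limma, log2 fold change -0.26, adjusted p = 0.0219), and IFI44 at 4636 and 5094 against 3774 and 4434 (-0.25, adjusted p = 0.0321). Their calls ended without knockdown library 1 (-0.11, adjusted p = 0.271, and -0.13, 0.246) and without non-targeting library 2 (0.0586 and 0.273), and IFI44L stood at -0.41 without knockdown library 2. Same-total scaling (0.114 for IFI44L and 0.141 for IFI44) and quantile normalization (0.149 and 0.157) ended both, and edgeR (0.0556) and a minimum mean of 50 (0.0529) ended that of IFI44. XAF1, which counters the apoptosis inhibitor XIAP, was at 9075 and 10120 against 7934 and 9160 and did not pass (limma, log2 fold change -0.17, adjusted p = 0.144). The knockdown library 2 value of XAF1 lay inside the non-targeting range. XAF1 stood at -0.07 without knockdown library 1, -0.27 without library 2 and -0.09 without non-targeting library 2. An antisense gene on the other strand, PRAL, covers 38.3% of its exonic bases, and the strand setting of the counting is not given in the sources used here.

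All 4 tested membrane proteins fell, with a median of -0.26. RTP4, which escorts receptors to the surface and limits flavivirus replication, was at 683.7 and 737.6 against 487.2 and 530.3. Both groups were tight, and it fell by 0.48 ± 0.09 on the log2 scale (limma, adjusted p = 0.00177). PLSCR1, a phospholipid scramblase that blocks viral entry, was at 9134 and 9637 against 7171 and 8188 (limma, -0.29, adjusted p = 0.00383). BST2 (tetherin), which holds budding virus at the plasma membrane, was at 25159 and 27271 against 21841 and 23139 (limma, -0.22, adjusted p = 0.0144). SHISA5, a protein of the endoplasmic reticulum also under p53 control, was at 19149 and 18798 against 15734 and 17074 (limma, -0.21, adjusted p = 0.017). The calls of BST2 and SHISA5 were less secure than those of RTP4 and PLSCR1. Without non-targeting library 2 both ended (adjusted p = 0.326 and 0.092), and that of SHISA5 also ended without non-targeting library 1 (0.222) or knockdown library 1 (0.0838). Scaling every library to the same total ended both as well (0.0811 and 0.0844), as did quantile normalization (0.149 and 0.112). LY6E, a surface protein anchored by a lipid that blocks coronavirus entry, had 3, 0, 3 and 0 reads in the 4 libraries, too few to test.

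Of the nuclear and signalling proteins 4 of 7 tested were called lower, with a median of -0.21. The others were lower too but short of the threshold, the highest log2 fold change of the 7 being -0.07. IFI35 and NMI, partner proteins that form a complex and can act as danger signals, did not move alike. IFI35 was at 5696 and 5966 against 3685 and 4299 and fell by 0.55 ± 0.06 on the log2 scale (limma, adjusted p = 1.05e-05). NMI was at 4708 and 4897 against 4088 and 4609 (limma, -0.15, adjusted p = 0.194), lower in both knockdown libraries but short of the threshold. NMI stood at -0.06 without knockdown library 1 and at -0.23 without library 2. The difference between IFI35 and NMI was not tested. IFI16, a nuclear sensor of viral DNA, was at 6172 and 6351 against 4075 and 5184, with knockdown library 1 well below library 2. It fell by 0.45 ± 0.07 (limma, adjusted p = 0.000636), and by 0.27 without knockdown library 1. SP110 and SP100, nuclear body proteins 190.2 kb apart on chromosome 2, also stood apart. SP110 was at 6932 and 7088 against 5302 and 6241 (limma, -0.29, adjusted p = 0.00748; -0.17 and 0.0772 without knockdown library 1), and SP100 at 3947 and 4027 against 3640 and 3977 (-0.07, adjusted p = 0.603). One knockdown value of SP100 fell inside the non-targeting range, and the difference from SP110 was not tested. Same-total and quantile scaling ended the call of SP110 (adjusted p = 0.0589 and 0.0621). Opposite-strand genes, AC009950.1 and SP140, share 20.9% of SP110's exonic bases. TDRD7, a tudor protein that inhibits autophagy, was at 13377 and 13675 against 10975 and 12434 (limma, -0.21, adjusted p = 0.0281). Its call ended without any 1 of non-targeting libraries 1 and 2 and knockdown library 1 (adjusted p = 0.107, 0.172 and 0.228, the last at -0.12) and under same-total and quantile scaling (0.128 and 0.12). PHF11, a zinc finger regulator of cytokine genes, was at 1864 and 1750 against 1661 and 1779, with overlapping groups (limma, -0.07, adjusted p = 0.638).

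Of the secreted, vesicle and lipid-binding proteins 5 of 7 tested fell, with a median of -0.33. LGALS3BP, a secreted glycoprotein that binds galectins, had the smallest p of all 35 genes. It was at 5345 and 5433 against 3410 and 3761, tight within both groups. The log2 fold change was -0.59 ± 0.06 (SE; limma, adjusted p = 9.66e-07), with -0.52 left when knockdown library 1 was dropped. LGALS9, a galectin that signals through immune checkpoint receptors, was at 9230 and 7866 against 7114 and 6496 and was lowest in knockdown library 2. It fell by 0.33 ± 0.06 (limma, adjusted p = 0.00325), but stood at -0.21 (adjusted p = 0.172) without non-targeting library 1. LAP3, a leucine aminopeptidase that trims peptides, was at 17471 and 18678 against 13000 and 15781 (limma, -0.33, adjusted p = 0.00312; -0.19 and 0.0129 without knockdown library 1).

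The 3 apolipoprotein L genes, all on chromosome 22, differed in depth. APOL1, which lyses trypanosomes in blood, was at 1699 and 1630 against 1023 and 1306 and fell by 0.53 ± 0.08 (limma, adjusted p = 0.000515; -0.35 without knockdown library 1). APOL6, an intracellular relative, was at 14719 and 15782 against 11225 and 13559 and fell by 0.30 ± 0.06 (limma, adjusted p = 0.00643; -0.17 and 0.0473 without knockdown library 1). Same-total and quantile scaling ended the call of APOL6 (adjusted p = 0.0564 and 0.0621). APOL2 was at 1153 and 1339 against 1035 and 1107 and did not pass (limma, -0.21, adjusted p = 0.133; -0.11 without non-targeting library 2). Differences among the 3 were not tested. IFI30, the lysosomal thiol reductase that unfolds antigens, had only 9 and 21 reads against 20 and 16. No change was detectable at this depth (limma, 0.48 ± 0.41 on the log2 scale, adjusted p = 0.606), and its sign turned without non-targeting library 1 (-0.07). In GENCODE 29, 40.2% of its exonic bases lie in a longer same-strand gene, AC007192.1, and the part of this overlap in the low count was not tested.

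Levels differed widely between the genes before any comparison. Per exonic length (RPKM, reads per kilobase of GENCODE 29 exon after scaling for library depth), the mean of the non-targeting libraries ran from 0.117 for IFI30 to 1953 for IFI6. The median of the 35 was 28.3, against 2.41 over the 18931 tested genes with a length, and 22 of the 35 lay above the 90th percentile of those genes. IFI6 led at 1797 and 2109 in the 2 libraries, followed by BST2 at 460.4 and 499.6 and MX1 at 140.2 and 141.2. LAP3 (94.5 and 101.2), SHISA5 (84.1 and 82.6) and CMPK2 (72.4 and 74.2) came next. Further down, APOL6 at 30.9, LGALS3BP at 30.8 and LGALS9 at 30.6 could not be ordered, since their libraries overlapped. ISG20, with the deepest fall, was among the scarcest on this scale, at 2.89 and 3.54. MX2, with a mean of 13.6, stood well below its paralog MX1. Length here counts every exonic base of any annotated transcript, 7363 for ISG20, 13047 for MX2 and 8616 for MX1. Where that exceeds the length of the transcripts present, the level per length is too low. Which transcripts were present was not tested. The abundant IFI6 and MX1 fell too, so falls were found across the range from 3.21 (ISG20) to 1953 (IFI6).

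**Figure D3:**
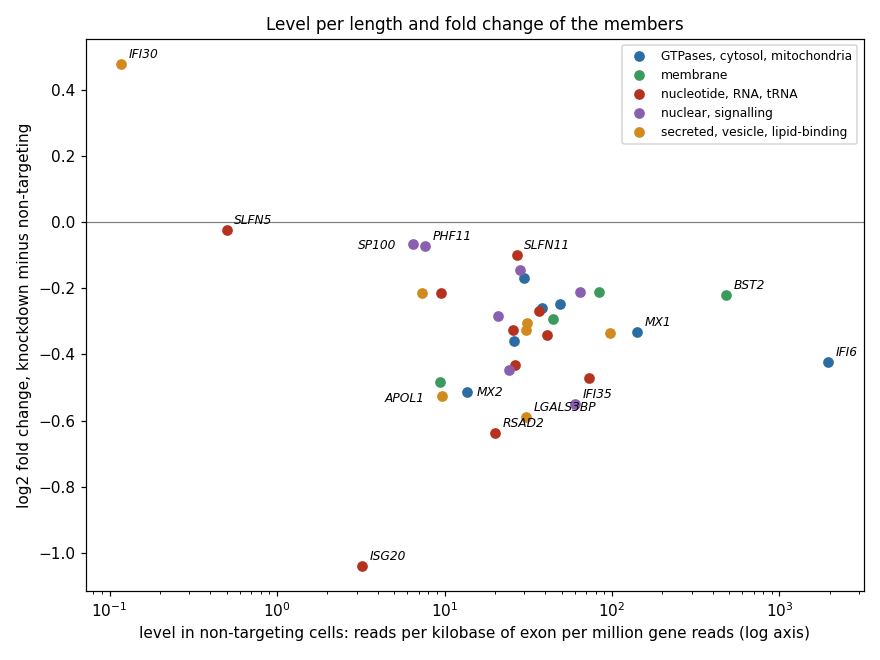
Level in the non-targeting libraries (RPKM, log x axis) against log2 fold change (y axis) for the 35 tested genes, coloured by role. ISG20 at 3.21 lies lowest, at -1.04, and IFI30, at 0.117 on the x axis, is the 1 point above 0.

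The rest of the interferon pathway was read from the same fit. That fit called 3.4% of all genes tested lower and 0.851% higher. Of 19 signalling genes tested, 6 fell and 0 rose, with a median log2 fold change of -0.16. Among them were USP18 (-0.53, adjusted p = 6.49e-05), the protease that takes ISG15 off proteins and damps the receptor, the phosphatase PTPN6 (-0.40, 6.32e-05), STAT2 (-0.32, 0.00325), IRF7 (-0.73, 0.00746) and the feedback inhibitor SOCS3 (-0.44, 0.03), all by limma. The receptor chains IFNAR1 and IFNAR2 and the kinases JAK1 and TYK2 did not pass, with log2 fold changes from -0.05 to -0.02. Further down but also short of the threshold by limma were IFNGR2 (-0.46, adjusted p = 0.136), IRF1 (-0.20, 0.053) and JAK2 (-0.16, 0.118). In the other direction IFNGR1, PTPN2 and PIAS1 stood at 0.03 to 0.09 and did not pass. STAT2 stood at -0.20 (adjusted p = 0.0195) without knockdown library 1. Without non-targeting library 1 IRF7 (-0.53, adjusted p = 0.251) and SOCS3 (0.2) lost their calls, and without non-targeting library 2 SOCS3 did (0.14). Same-total and quantile scaling ended that of SOCS3 (0.0848 and 0.0551), and DESeq2 those of IRF7 (0.054) and SOCS3 (0.187). IRF9 is not analysed here. Of 31 tested genes of the other interferon-stimulated families 28 fell and 0 rose, with a median of -0.40. IFITM3, which blocks fusion of incoming virus, stood at -0.58, ISG15, a ubiquitin-like modifier, at -0.52 and OAS3, which makes the activator of RNase L, at -0.46. These families shared the pattern by library, with medians of -0.54 in knockdown library 1 and -0.29 in library 2.

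Calls were firmest for 11 of the 35 genes, which were called lower in 14 of 15 alternative analyses: MX1, IFI6, EPSTI1, PLSCR1, RTP4, CMPK2, TYMP, CNP, IFI35, LGALS3BP and APOL1. The exception was limma with no mean-variance trend, which called 0 of the 35 and 0 of all genes, with 14 of the 35 lower and 2337 genes in all at an unadjusted p under 0.05. EdgeR called 24 of the 35 lower, where it called 2.87% of all genes lower, and DESeq2 called 17, where it called 1.96%. Robust empirical Bayes called 17 of the 35 but more of all genes, 3.99% against 3.4%. The 9 calls lost there were MX2, IFI44L, RSAD2, ISG20, SAMD9, SAMD9L, IFI16, LAP3 and APOL6. In these, knockdown library 2 stood 0.27 to 0.56 above library 1 on the log2 scale (median 0.32), against a median of 0.18 in the 17 that held. DESeq2 lost 7 of the same 9 (not MX2 or ISG20), plus IFI44 and TDRD7. All of the 26 called genes stayed lower in each of the 15 alternatives. This is a weak check, since the groups of all 26 did not overlap and leaving out 1 library could not turn the sign. Several other alternatives, such as robust empirical Bayes, keep the same fold change and could not turn it either.

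**Figure D4:**
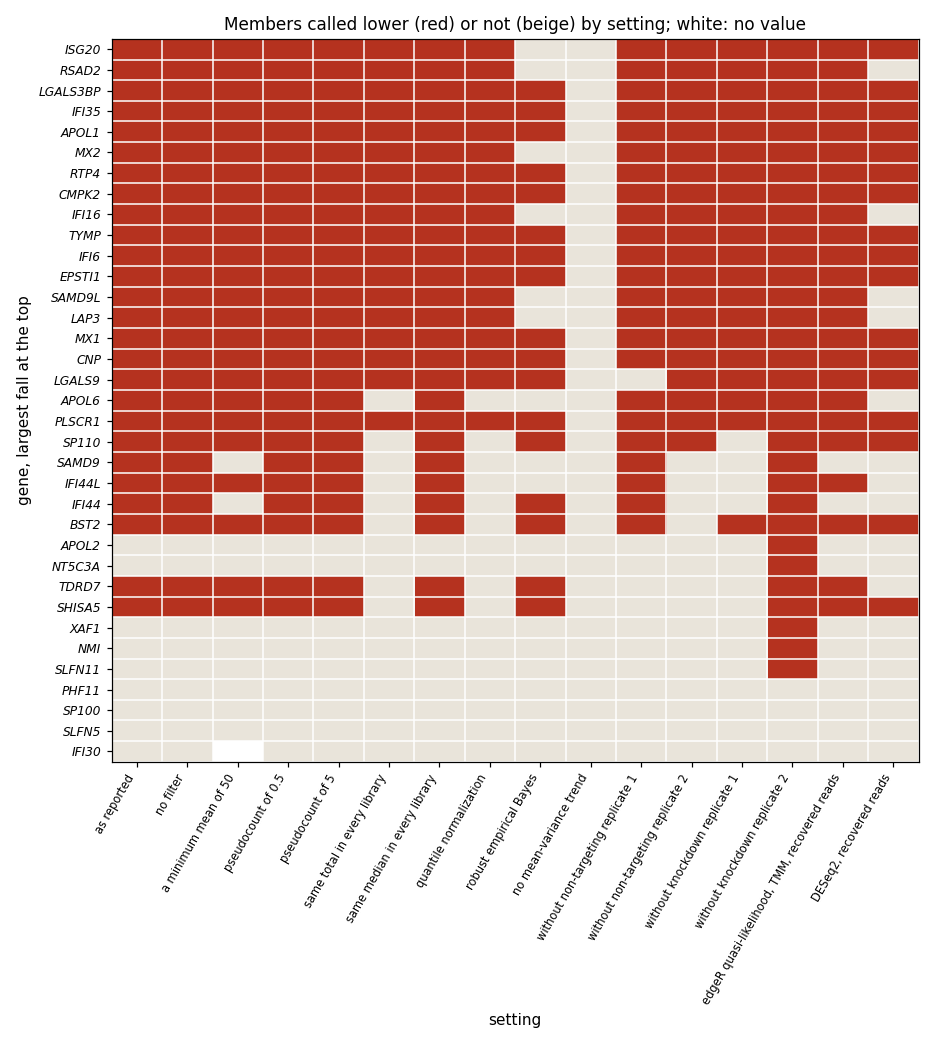
Each row is 1 of the 35 tested genes, from the largest fall at the top, and each column 1 analysis, the first as reported. Red cells are calls of lower expression (adjusted p under 0.05), beige cells no call and white no value; the column with no mean-variance trend holds no call, and 5 more genes are red only without knockdown library 2.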

How the data were processed

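The deposited values are a normalized signal, read counts per gene after division by 1 size factor for each library by the authors. STAR 2.5.1b, DESeq2 and GRCh38 are named, with no role, per the submitters' processing notes; the annotation, counter and strand setting were not given in sources used here. Libraries were NEBNext Ultra II preparations of Qiagen RNeasy Plus RNA, per the labels' protocols. Each value was turned back into a whole number of reads. The table holds no gene with fewer than 2 reads in knockdown library 1, and genes without a row are not analysed here. Columns named for the non-targeting samples were matched by name, the others by elimination and numbered in column order.

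The test was limma 3.58.1 (R 4.3.3) on log2(value + 1), fitted to all 4 libraries with empirical Bayes and a mean-variance trend. Genes needed a mean of 10 or more, and p-values were adjusted by Benjamini-Hochberg over all genes tested. A fold change on this scale understates that of low genes. Alternatives included edgeR 4.0.16 and DESeq2 1.42.0 on the recovered reads. On simulated data for 19140 genes 69 of 100 genes set to a 1.5-fold change were found by limma, and 10 of 162 calls were false. Folds under 1.5, which most called effector genes had, were not tested in this way. Whether these shares hold for the effector genes was not tested. Symbols matched for 26579 genes. The rule asked for values in every library for the 15 members of smallest p and those that did not pass; those of the others were added. It also named called signalling genes, of which not all are reported here, 3 genes of the other families and 6 promoters. Members and lists were chosen with earlier results of these data known.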

Additional observations from a re-analysis of the deposited data

How the results depend on the processing

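The count of effector genes called lower was 26 as reported and 0 (no mean-variance trend), 17 (robust empirical Bayes) and 17 (DESeq2) under the alternatives that moved it by over 1.5 times. It was 18 with the same total or quantile normalization, and 20 to 31 with 1 library left out. No alternative called an effector gene higher. Their median log2 fold change ran from -0.41 to -0.18. Other interferon-stimulated families gave 28 calls, and 17, 16 and 0 with robust empirical Bayes, DESeq2 and no trend. Signalling genes gave 6, with 0 under no trend and 3 to 8 with 1 library left out. Over all genes 660 were lower and 165 higher. The lower count was 293 (same total), 334 (quantile), 380 (DESeq2), 0 (no trend) and 334 to 960 with 1 library left out. The higher count was 291 (same median), 67 (DESeq2), 0 (no trend) and 87 to 309 with 1 library left out. The share of lower calls, 80%, was 55.5% with the same total, 69.1% with the same median and 70.2% after quantile normalization. The cause of these shifts was not tested. For single effector genes, 440 of 524 alternative values kept their side of the threshold, 79 lost the call and 5 gained it. Fits without 1 library take the remaining sample of the reduced group to have the spread of the other group. No paired analysis was possible because the columns are numbered 1 and 2 in one group and 3 and 2 in the other, and so share only 1 number. IFI30 and LY6E had the fewest reads among these genes, the others having at least 220 in every library. SLFN5, with 220 to 295 reads, had an SE of 0.14, so a modest change could be missed there too.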
